A study of Mus musculus with 6 samples.

Results

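Sterol and fatty acid synthesis was followed through 32 genes in cultured mouse Schwann cells (SCs), the glia that myelinate peripheral axons. The genes were taken from a list by their function, 21 in a sterol arm and 11 in a fatty acid arm, and matched by Ensembl identifier to the 55401 gene rows of the exonic count table. All 32 had a row, and all 32 passed the filter on low counts that left 22318 genes for testing. The libraries came from 3 WT and 3 Plxnb1-/- primary cultures, each started from the dorsal root ganglia of adult animals. The Plxnb1-/- cells carry a gene trap in the locus of Plexin-B1, a receptor for semaphorins, and the line is kept on a C57BL/6 background. Both genotypes were grown in 2 µM forskolin, 10 nM neuregulin and 10% fetal bovine serum, passed through magnetic removal of Thy1-positive fibroblasts, and used at passages 3 to 5 at a stated purity above 80%. The allele is carried by every cell of the mouse, and the sex of the mice and the number of mice behind a culture are not given in the sources used here. P-values therefore measure the spread between these cultures.

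Cholesterol is built from acetyl-CoA through mevalonate, farnesyl diphosphate, squalene and lanosterol, and fatty acids are built from the same precursor by carboxylation, chain synthesis, elongation and desaturation. Transcription of both routes is driven by the SREBP factors, which are held in the endoplasmic reticulum when sterols are plentiful and released when sterols run low. Myelin is unusually rich in cholesterol and long-chain lipids, and SCs make much of that cholesterol themselves. Serum in the medium is a source of sterols and fatty acids, and all 6 cultures shared it.

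Every one of the 32 genes had a higher mean in the Plxnb1-/- cultures, by a small amount, and none passed the test after adjustment over all genes by edgeR. The median difference was a log2 fold change of 0.19 in the sterol arm and 0.18 in the fatty acid arm, against 0.005 over all tested genes. The range ran from 0.059 for Acly, which makes cytosolic acetyl-CoA from citrate, to 0.31 for Lss, the enzyme that closes squalene epoxide into lanosterol. A log2 fold change above 0 was found for 51.5% of all tested genes. Each arm shared 1 pattern across cultures, with WT replicate 2 lowest for all 32 genes and Plxnb1-/- replicate 3 highest for 30 of them.

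The 3 promoters printed here belong to an early sterol enzyme, to a sterol enzyme that also had one of the 3 smallest p-values of its arm, and to the fatty acid gene with the smallest p-value, and they show the motifs that are counted over all promoters further on. Hmgcs1 is shown because it was the only one of the 25 members with a promoter in the table that held a sterol regulatory element, and Mvk and Elovl5 were chosen after their values were seen. Each stretch ends just before the RefSeq start of the gene, lies on the plus strand of GRCm38.p6, reads 5′ to 3′ and leaves out bases that GENCODE places in an exon. Capitals mark TCACNCCAC, the sterol regulatory element that SREBP factors bind, CCAAT, the box bound by NF-Y, and CACGTG, the E-box, each on either strand. The Hmgcs1 stretch is chr13:119690101-119690350, the Mvk stretch is chr5:114444061-114444268 and the Elovl5 stretch is chr9:77917115-77917363.
Hmgcs1: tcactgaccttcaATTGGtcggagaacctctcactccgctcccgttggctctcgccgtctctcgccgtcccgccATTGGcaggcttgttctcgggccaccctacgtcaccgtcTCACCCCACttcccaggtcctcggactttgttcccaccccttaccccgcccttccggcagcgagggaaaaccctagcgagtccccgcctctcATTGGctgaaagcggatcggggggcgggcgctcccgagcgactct
Mvk: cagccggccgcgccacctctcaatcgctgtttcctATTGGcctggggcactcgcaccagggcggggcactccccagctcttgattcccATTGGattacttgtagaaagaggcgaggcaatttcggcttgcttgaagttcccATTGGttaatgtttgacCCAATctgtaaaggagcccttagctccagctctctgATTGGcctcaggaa
Elovl5: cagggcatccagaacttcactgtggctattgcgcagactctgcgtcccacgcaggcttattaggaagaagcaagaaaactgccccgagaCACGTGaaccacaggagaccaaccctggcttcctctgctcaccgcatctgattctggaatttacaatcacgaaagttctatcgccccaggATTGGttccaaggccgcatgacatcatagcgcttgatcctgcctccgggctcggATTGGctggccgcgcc
Hmgcs1 holds 1 sterol regulatory element, 137 to 129 bases before the start, and 3 CCAAT boxes. Mvk holds 5 CCAAT boxes and no match to the other motifs, and Elovl5 holds 2 CCAAT boxes and 1 E-box.

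Library depth was high and similar, with total counts between 59252048 and 77280964, so that 3 counts correspond to 0.0388 to 0.0506 CPM, counts per 1000000 counts of the library. Levels are given as CPM scaled by TMM factors, and differences are log2 fold changes of Plxnb1-/- over WT from edgeR's quasi-likelihood test, with the adjusted p taken over all 22318 genes. Plxnb1 itself was at 61.8, 45.4 and 96.4 CPM in WT replicates 1 to 3 and at 13.1, 16.6 and 18.6 CPM in the Plxnb1-/- replicates. The genotypes did not overlap, and the difference was -2.08 (SE 0.249, edgeR adjusted p = 0.0449, DESeq2 adjusted p = 2.74e-06). The edgeR adjusted p was between 0.0812 and 0.254 without WT replicate 1 or any 1 of the Plxnb1-/- replicates. These counts run over all exons of the gene, on both sides of the trap. The SC markers Sox10 (432 to 580 CPM), Erbb3 (324 to 498 CPM) and Ngfr (165 to 249 CPM) were abundant in every culture, while S100b was low, between 7.09 and 8.22 CPM. Some of the genes listed as fibroblast markers were abundant too, but not all. Pi16 (0.601 to 1.23 CPM) and Dpt (0.386 to 0.781 CPM) were low in every culture, and Lum was at 39.1 to 48.5 CPM. Thy1, the target of the fibroblast removal, was at 429, 652 and 490 CPM in WT and at 410, 409 and 384 CPM in Plxnb1-/-. Pdgfrb was at 563 to 727 CPM in WT and at 578 to 604 CPM in Plxnb1-/-.

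A gene was called at an edgeR adjusted p below 0.05 together with an absolute log2 fold change above 0.25. By this rule 0 of the 32 genes was called, as were 8 genes or 0.0358% of all tested genes (0.00448% called higher), and the smallest adjusted p in the list was 0.27. DESeq2 also called 0 of the 32 against 1.5% of all tested genes. At an unadjusted edgeR p below 0.05, 15 of 21 sterol genes and 6 of 11 fatty acid genes were higher, where 6.95% of all tested genes were higher at that level. The WT and Plxnb1-/- values did not overlap for 13 of the 21 and for 5 of the 11, with the Plxnb1-/- cultures above, which held for 9.3% of all tested genes. Separation in the other direction held for 10.4%, and in either direction for 19.7%, of all tested genes, and for 0 members with WT above. These counts are not independent, since the same 2 cultures lie at the ends for nearly every member. WT replicate 2 was the lowest culture for 27% of all tested genes and Plxnb1-/- replicate 3 the highest for 20.4%. The 2 exceptions among the members were Tm7sf2 and Acss2, which were highest in Plxnb1-/- replicate 2.

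**Figure D1:**
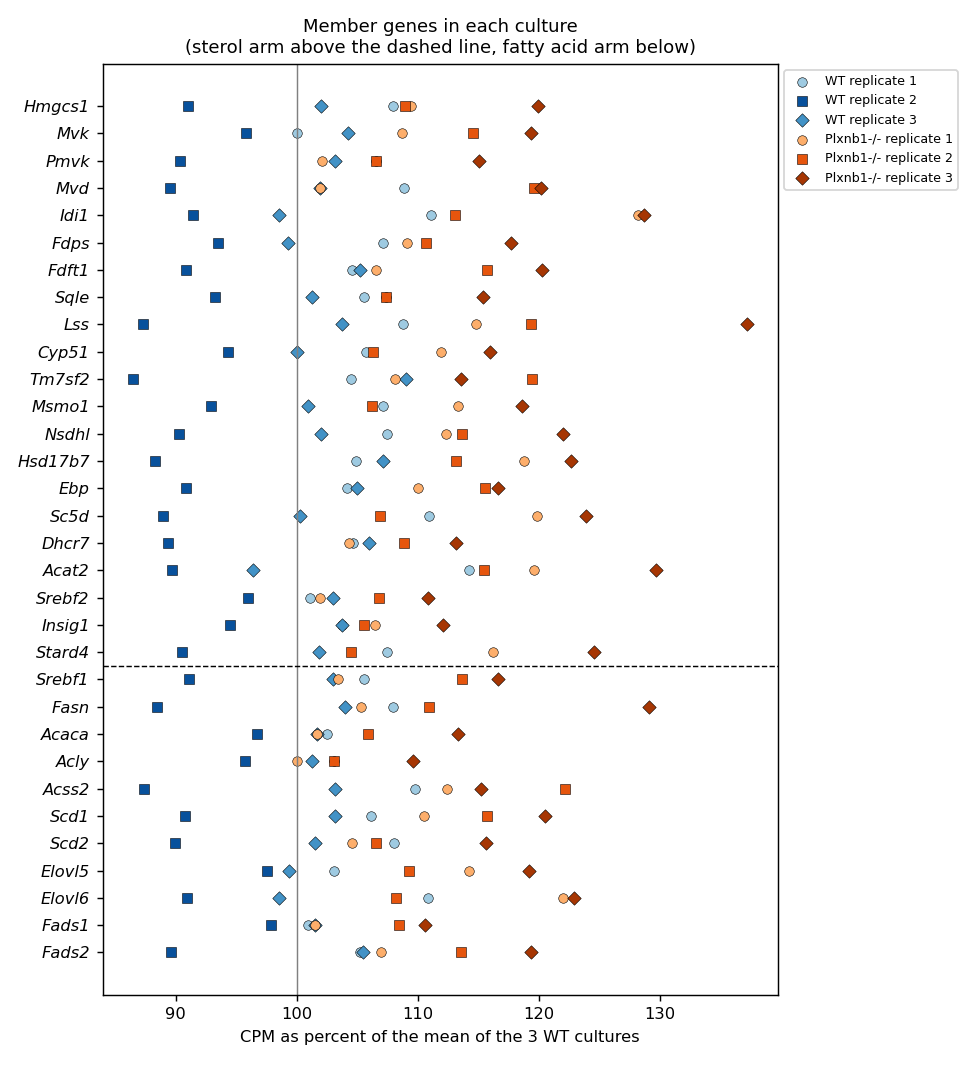
Level of each of the 32 genes in each culture, as CPM in percent of the mean of the 3 WT cultures, with the sterol arm above the dashed line and the fatty acid arm below. WT replicate 2 (dark blue squares) is the leftmost point in all 32 rows, and Plxnb1-/- replicate 3 (dark red diamonds) is the rightmost in 30.

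Relative to the WT mean of each gene, the median sterol gene stood at 106, 90.8 and 102% in WT replicates 1 to 3 and at 109, 111 and 119% in the Plxnb1-/- replicates. The median fatty acid gene stood at 106, 90.8 and 102% in WT and at 105, 109 and 117% in Plxnb1-/-. WT replicate 1 thus lay above Plxnb1-/- replicate 1 for the median fatty acid gene and 3 percentage points below it for the median sterol gene. Leaving out WT replicate 2 kept all 32 genes higher in Plxnb1-/- and lowered the medians to 0.13 in the sterol arm and 0.11 in the fatty acid arm. Without that culture 10 sterol and 4 fatty acid genes had an unadjusted edgeR p below 0.05, against 5% of all tested genes that were higher at that level. Without Plxnb1-/- replicate 3 the medians were 0.15 and 0.12, and 10 of the 32 genes had an unadjusted p below 0.05 where all 6 cultures gave 21. The share of all tested genes at that level was not counted for this fit, so the count of 10 has no background beside it. Members were called in 1 of the fits that left out a culture, DESeq2 without WT replicate 1, which called 8 of the 32 (Idi1, Lss, Nsdhl, Sc5d, Acat2, Acss2, Scd1 and Elovl6) and 4.17% of all genes it tested. With all 6 cultures, adding the replicate number to the DESeq2 model called Lss and Acat2, where 1.74% of all tested genes were called.

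**Figure D2:**
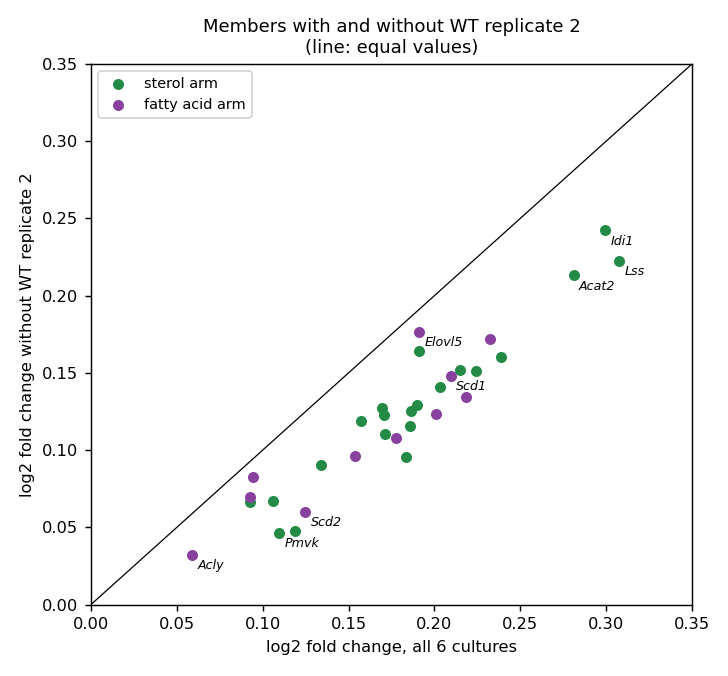
Log2 fold change of each gene from all 6 cultures (horizontal axis) and without WT replicate 2 (vertical axis), with a line of equal values and 8 genes named. All 32 points lie below the line and above 0, from 0.032 for Acly to 0.24 for Idi1 on the vertical axis.

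The mevalonate and isoprenoid stage opens the sterol arm, and its 7 genes had a median difference of 0.19. Acat2, the cytosolic thiolase that joins acetyl-CoA units, was at 53.1, 41.7 and 44.8 CPM in WT and at 55.6, 53.7 and 60.3 CPM in Plxnb1-/-. All Plxnb1-/- cultures were above all WT cultures, although WT replicate 1 nearly reached Plxnb1-/- replicate 2, and the difference was 0.28 (SE 0.0856, edgeR adjusted p = 0.286). Acat2 shares near-identical sequence with Acat3 (97.7% identity over 1477 bases) and 445 bases with Tcp1 at 98.7%, so its reads may be split between genes. Mvk, mevalonate kinase, was at 31.0, 29.7 and 32.3 CPM in WT and at 33.7, 35.5 and 37.0 CPM in Plxnb1-/-. The cultures of a genotype lay close together and the genotypes did not overlap, at a difference of 0.19 (SE 0.0552, edgeR adjusted p = 0.273).

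Idi1, the isomerase that supplies dimethylallyl diphosphate, was at 22.1, 18.2 and 19.6 CPM in WT and at 25.5, 22.5 and 25.6 CPM in Plxnb1-/-. Its difference of 0.30 (SE 0.0823, edgeR adjusted p = 0.273) was among the 3 in the list above 0.25, and WT replicate 1 nearly reached Plxnb1-/- replicate 2. Fdps, farnesyl diphosphate synthase, was at 75.3, 65.7 and 69.8 CPM in WT and at 76.7, 77.8 and 82.7 CPM in Plxnb1-/-, a difference of 0.17 (SE 0.0573, edgeR adjusted p = 0.294). Its genotypes did not overlap, but 26.71% of its exon bases are also annotated in Gm43738 on the same strand, so the count rests on how shared reads were assigned. The other genes of the stage, Hmgcs1, Pmvk and Mvd, differed by 0.17, 0.11 and 0.19, and the genotypes of Pmvk and Mvd overlapped. For Hmgcs1, HMG-CoA synthase, the cultures lay at 217, 183 and 205 CPM in WT and at 220, 219 and 241 CPM in Plxnb1-/-. A part of the Hmgcs1 exons, 12.12% of its bases, is shared with Gm48342 on the opposite strand, which had mean levels of 46.0 CPM (WT) and 50.8 CPM (Plxnb1-/-).

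Between squalene and lanosterol, 3 genes were measured, with a median of 0.19. Lss was at 78.1, 62.7 and 74.5 CPM in WT and at 82.4, 85.7 and 98.5 CPM in Plxnb1-/-. WT replicate 2 and Plxnb1-/- replicate 3 stood apart at the ends and the other 4 cultures lay within 74.5 to 85.7 CPM, with no overlap between genotypes. The difference was 0.31 (SE 0.0904, edgeR adjusted p = 0.278, DESeq2 adjusted p = 0.0531), and it was 0.22 without WT replicate 2. Fdft1, squalene synthase, differed by 0.19 and Sqle, squalene epoxidase, by 0.13, neither with an overlap. A part of the Fdft1 exons, 18.31% of its bases, is shared with Ctsb on the opposite strand, and Ctsb had mean levels of 1300 CPM (WT) and 1280 CPM (Plxnb1-/-). Whether the counting used strand is not given in the sources used here.

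From lanosterol to cholesterol, 8 genes had a median of 0.19, and 4 of them had no overlap between the genotypes. Hsd17b7, a 3-ketosterol reductase, was at 51.9, 43.7 and 53.0 CPM in WT and at 58.8, 56.0 and 60.7 CPM in Plxnb1-/-. The genotypes did not overlap, but the gap between them, from 53.0 to 56.0 CPM, was narrower than the WT range of 43.7 to 53.0 CPM. The difference was 0.24 (SE 0.0727, edgeR adjusted p = 0.286). Nsdhl, a C4-sterol dehydrogenase, was at 70.8, 59.5 and 67.2 CPM in WT and at 74.0, 74.9 and 80.4 CPM in Plxnb1-/-, a difference of 0.22 (SE 0.0663, edgeR adjusted p = 0.286). Ebp, the sterol isomerase that acts on the ring double bond, was at 37.6, 32.8 and 37.9 CPM in WT and at 39.7, 41.7 and 42.1 CPM in Plxnb1-/-. Its difference was 0.19 (SE 0.063, edgeR adjusted p = 0.293), with no overlap. Cyp51, the lanosterol demethylase, differed by 0.16 with no overlap, while Sc5d (0.22), Tm7sf2 (0.18), Msmo1 (0.17) and Dhcr7 (0.12) overlapped between the genotypes. A part of the Tm7sf2 exons, 12.08% of its bases, is shared with Vps51 on the same strand, which had mean levels of 31.5 CPM (WT) and 32.6 CPM (Plxnb1-/-). Dhcr7, which makes cholesterol from 7-dehydrocholesterol, was at 97.1, 82.9 and 98.3 CPM in WT and at 96.8, 101 and 105 CPM in Plxnb1-/-, so that Plxnb1-/- replicate 1 lay below 2 WT cultures.

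The genes of sterol regulation and transfer had a median of 0.11 over 3 genes. Srebf2, which encodes SREBP-2, the main activator of the sterol genes, was at 375, 356 and 382 CPM in WT and at 378, 396 and 411 CPM in Plxnb1-/-. WT replicate 3 lay above Plxnb1-/- replicate 1, and the difference of 0.092 (SE 0.0484, edgeR adjusted p = 0.433) was the smallest of the sterol arm. Insig1, which retains the SREBP complex in the endoplasmic reticulum and is itself an SREBP target, was at 112, 102 and 112 CPM in WT and at 115, 114 and 121 CPM in Plxnb1-/-. Its genotypes did not overlap, but the difference was 0.11 with a 95% interval from -0.0061 to 0.22 (edgeR adjusted p = 0.383). Stard4, a cytosolic sterol carrier, differed by 0.20 with an overlap between the genotypes.

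**Figure D3:**
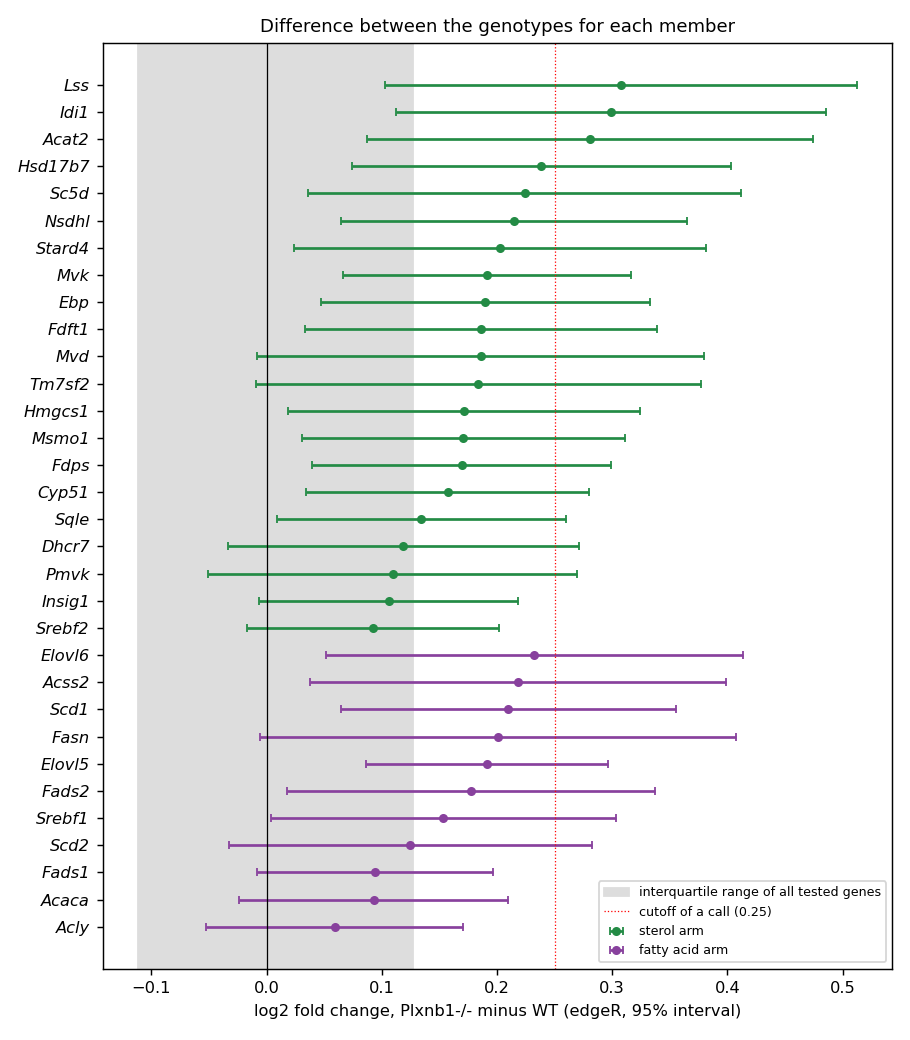
Log2 fold change of Plxnb1-/- over WT for each gene with its 95% interval from edgeR, in the sterol arm (green) and the fatty acid arm (purple), beside the interquartile range of all tested genes (grey) and the cutoff of 0.25 (dotted). All 32 points lie above 0, from 0.059 for Acly to 0.31 for Lss, and 3 pass the cutoff.

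In the fatty acid arm, acetyl-CoA supply had a median of 0.14 and chain synthesis a median of 0.15, over 2 genes each. Acly was at 334, 310 and 328 CPM in WT and at 324, 334 and 355 CPM in Plxnb1-/-, so that the genotypes overlapped widely at a difference of 0.059 (SE 0.0494, edgeR adjusted p = 0.627). Acss2, which makes cytosolic acetyl-CoA from acetate, was at 38.2, 30.4 and 35.9 CPM in WT and at 39.1, 42.5 and 40.1 CPM in Plxnb1-/-. These values did not overlap and differed by 0.22 (SE 0.0796, edgeR adjusted p = 0.308). Acaca, the carboxylase that forms malonyl-CoA, differed by 0.093 and Fasn, fatty acid synthase, by 0.20, both with an overlap. For Fasn the 95% interval ran from -0.0056 to 0.41, with Plxnb1-/- replicate 3 at 391 CPM and the other 2 Plxnb1-/- cultures at 319 and 336 CPM. Acaca has a processed pseudogene, Gm5182, of 99.2% identity that was itself counted at 15.1 CPM in WT.

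Elongation gave the largest median of the fatty acid stages, 0.21 over 2 genes. Elovl5, which lengthens polyunsaturated chains, was at 167, 158 and 161 CPM in WT and at 185, 177 and 193 CPM in Plxnb1-/-. Among the members its difference was the largest relative to its standard error, at 0.19 (SE 0.0464, edgeR adjusted p = 0.27). It was the only member with a DESeq2 adjusted p below 0.05 (0.0391), which 1.69% of all tested genes had, and its fold change stayed under the cutoff. Elovl6, which lengthens saturated and monounsaturated chains, was at 37.8, 31.0 and 33.6 CPM in WT and at 41.6, 36.9 and 41.9 CPM in Plxnb1-/-. WT replicate 1 lay above Plxnb1-/- replicate 2, and the difference was 0.23 (SE 0.0799, edgeR adjusted p = 0.296).

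The desaturases were the most abundant members, with a median difference of 0.15 over 4 genes. Scd1, a stearoyl-CoA desaturase that makes oleate, was at 907, 776 and 882 CPM in WT and at 945, 989 and 1030 CPM in Plxnb1-/-. The genotypes did not overlap, and the difference was 0.21 (SE 0.0642, edgeR adjusted p = 0.286). Scd2, its paralog, was at 2150, 1790 and 2020 CPM in WT and at 2080, 2120 and 2300 CPM in Plxnb1-/-, with WT replicate 1 above 2 of the Plxnb1-/- cultures and a difference of 0.12 (SE 0.0697, edgeR adjusted p = 0.461). The 2 genes share 624 bases at 94.7% identity, where reads could be placed on either, and the difference between their fold changes was not tested. Fads2, the delta6 desaturase, was at 365, 311 and 366 CPM in WT and at 371, 394 and 414 CPM in Plxnb1-/-, a difference of 0.18 (SE 0.0704, edgeR adjusted p = 0.332). Fads1, the delta5 desaturase, differed by 0.094, and both genes were without an overlap between the genotypes, although WT replicate 3 and Plxnb1-/- replicate 1 were close. Srebf1, which encodes SREBP-1, the activator of the fatty acid genes, was at 248, 214 and 242 CPM in WT and at 243, 267 and 274 CPM in Plxnb1-/-. WT replicate 1 lay above Plxnb1-/- replicate 1, at a difference of 0.15 (SE 0.0663, edgeR adjusted p = 0.356).

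Levels between genes were set side by side as CPM per kb of exon, with all annotated exons of a gene merged, which lowers genes with retained-intron isoforms such as Lss (10787 bases). On this scale Scd2 was the highest member at 364 ± 32.8 CPM per kb in WT (SD, n = 3) and 397 ± 20.8 in Plxnb1-/- (SD, n = 3), above 99.8% of tested genes. Scd1 followed at 175 ± 14.2 CPM per kb in WT, then Fads2 at 105 ± 9.52 and Fads1 at 68.8 ± 1.3 (SD, n = 3 each). The highest sterol gene was Srebf2 at 51.6 ± 1.92 CPM per kb in WT, and the highest sterol enzyme was Hmgcs1 at 43.8 ± 3.72 (SD, n = 3 each). At the lower end were Idi1 (5.69), Elovl6 (5.31), Tm7sf2 (5.04) and Acss2 (3.43 CPM per kb in WT), of which the lowest still lay above 55.5% of tested genes. Summed over the arm, the sterol genes took 2090, 1830 and 2030 CPM in WT and 2160, 2170 and 2330 CPM in Plxnb1-/-. The fatty acid genes took 5030, 4330 and 4840 CPM in WT and 5010, 5180 and 5540 CPM in Plxnb1-/-, so that WT replicate 1 was above Plxnb1-/- replicate 1 in this arm only.

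Marker lists of cell types and of proliferation also differed between the cultures, though not in step with the members throughout. The SC markers summed to 1690, 1420 and 1700 CPM in WT and to 1730, 1900 and 1930 CPM in Plxnb1-/-, with 7 of 8 markers higher and a median of 0.18, close to the medians of both arms. Without WT replicate 2, 7 of 8 SC markers were still higher at a median of 0.15, where the arms had 0.13 (sterol) and 0.11 (fatty acid). Fibroblast markers summed to 2000, 2770 and 2310 CPM in WT and to 2080, 2140 and 2160 CPM in Plxnb1-/-, with 7 of 8 lower and the highest sum in WT replicate 2, the culture where all 32 members were lowest. Without WT replicate 2 the direction of the fibroblast list was gone, with 4 of 8 markers higher and a median of 0.015. Genes of proliferation summed to 1280, 970 and 1080 CPM in WT and to 1250, 1200 and 1420 CPM in Plxnb1-/-, with 8 of 8 higher and a median of 0.17, the lowest sum in WT replicate 2 and the highest in Plxnb1-/- replicate 3. Their median was 0.084 without WT replicate 2, with 8 of 8 still higher. The proliferation sum of WT replicate 1 lay above those of Plxnb1-/- replicates 1 and 2, and 0 of 8 genes separated the genotypes. Macrophage markers (44.7 to 50.6 CPM in WT, 52.3 to 61.7 CPM in Plxnb1-/-) and neuron markers (148 to 163 CPM in WT, 165 to 188 CPM in Plxnb1-/-) were higher for 8 of 8 genes each. DESeq2 called 2 of the 8 macrophage markers higher, against 0.69% of all tested genes, and 0 of the neuron markers. Most of the neuron sum was Tubb3, at 127 to 143 CPM in WT and 143 to 153 CPM in Plxnb1-/-. Relative to the WT mean of each gene, the median neuron marker stood at 81.4, 102 and 108% in WT replicates 1 to 3. In Plxnb1-/- replicates 1 to 3 it stood at 108, 109 and 191%. Plxnb1-/- replicate 3 was the highest culture for 7 of the 8 neuron markers, against 20.4% of all tested genes. Endothelial markers (58.8 to 80.1 CPM in WT, 61.4 to 67.9 CPM in Plxnb1-/-) were lower for 5 of 6, and mural cell markers summed to 480 to 588 CPM in WT and 439 to 483 CPM in Plxnb1-/-, although 4 of 6 were higher at a median of 0.098. Adipocyte markers, for cells that also make much fatty acid, were nearly absent at 0.438 to 0.703 CPM in all, with Cidec and Lep at 0 counts. The part of cell makeup and growth in the differences of the members was not tested, and in these bulk libraries more SCs and more RNA per SC cannot be told apart.

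**Figure D4:**
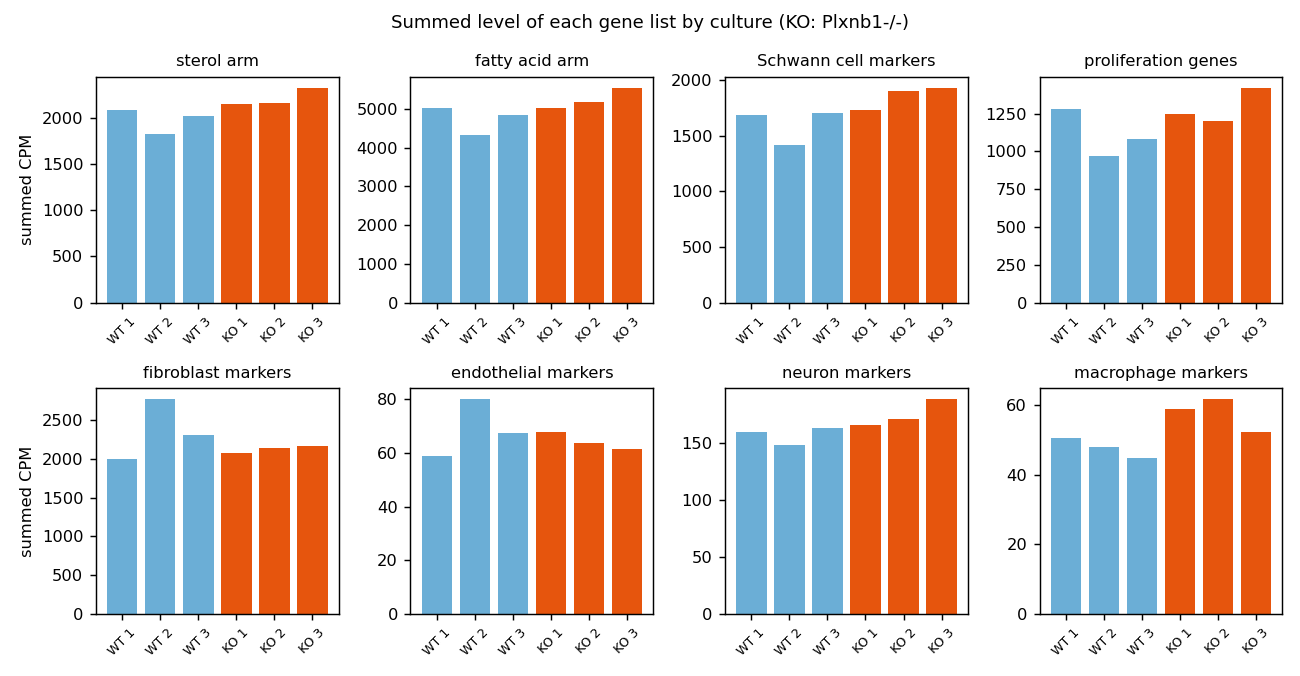
Summed CPM of the 2 arms and of 6 marker lists in each culture (blue, WT replicates 1 to 3; orange, Plxnb1-/- replicates 1 to 3), each panel with its own axis from 0. WT replicate 2 has the lowest sum of both arms, of the SC markers and of the proliferation genes, and the highest sum of the fibroblast markers (2770 CPM).

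Genes around the 2 routes were read from 8 further lists, 101 tested genes in all, of which 74 were higher and 27 lower in Plxnb1-/-, with a median of 0.064. edgeR called 0 of them, and DESeq2 called 3, all higher, where 0.69% of all tested genes were called higher by DESeq2. At an unadjusted edgeR p below 0.05, 18 of the 101 were higher, against 6.95% of all tested genes. At that level 4 were lower, against 1513 of all 22318 tested genes. The genotypes did not overlap for 22 with Plxnb1-/- above and for 7 with WT above, against 9.3% and 10.4% of all tested genes. Genes that process or degrade the SREBP factors split evenly, 4 higher and 4 lower, with a median of 0.0011. The smallest p there belonged to Ube2g2, a ubiquitin-conjugating enzyme of the endoplasmic reticulum, at -0.12 (SE 0.0583, edgeR adjusted p = 0.392). Of 6 other genes of sterol synthesis, 5 were higher at a median of 0.11.

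Uptake and transport genes were higher for 12 of 15 at a median of 0.066, with the smallest p for Gramd1b, a carrier of cholesterol from the plasma membrane, at 0.28 (SE 0.1241, edgeR adjusted p = 0.369). Efflux, storage and oxysterol response genes were higher for 7 of 10 at a median of 0.15. Apoe, the apolipoprotein that carries cholesterol out of glia, was at 162, 166 and 175 CPM in WT and at 182, 222 and 218 CPM in Plxnb1-/-. It did not overlap and was called by DESeq2 only, at 0.31 (SE 0.0743, edgeR adjusted p = 0.27, DESeq2 adjusted p = 0.0162). Other fatty acid synthesis genes were higher for 19 of 24 at a median of 0.067, and DESeq2 called Scd4, a low-level paralog of Scd1, at 0.52 (SE 0.1364, DESeq2 adjusted p = 0.0301), with 3.39 to 4.27 CPM in WT and 4.61 to 6.22 CPM in Plxnb1-/-.

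Fatty acid oxidation, the opposing route, was higher for 10 of 14 genes at a median of 0.091. Cpt1a, which admits long chains to mitochondria, was at 81.2, 72.6 and 78.5 CPM in WT and at 84.9, 91.7 and 91.6 CPM in Plxnb1-/-, a difference of 0.21 (SE 0.0542, edgeR adjusted p = 0.273). Its genotypes did not overlap. Glycerolipid and lipid droplet genes were higher for 9 of 12 at a median of 0.053, and the smallest p belonged to Mgll, monoacylglycerol lipase, at -0.34 (SE 0.1051, edgeR adjusted p = 0.286). Genes of myelin sphingolipid synthesis were higher for 8 of 12 at a median of 0.074. Among them DESeq2 called Ugt8a, which makes galactosylceramide, at 0.49 (SE 0.1268, edgeR adjusted p = 0.273, DESeq2 adjusted p = 0.029), with 4.05 to 5.44 CPM in WT and 6.32 to 7.65 CPM in Plxnb1-/-.

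**Figure D5:**
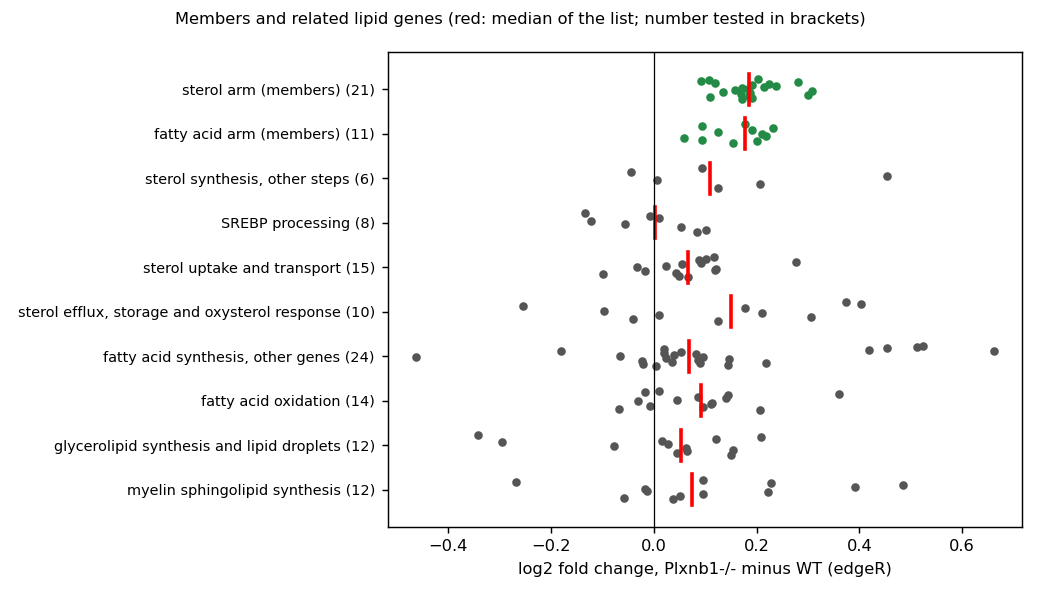
Log2 fold change of Plxnb1-/- over WT for the members (green) and for 8 lists of related lipid genes (grey), 1 point per tested gene, spread vertically only to separate points, with the median of each list in red. The members lie between 0.059 and 0.31, while every related list has genes on both sides of 0, and the medians of the related lists run from 0.0011 to 0.15.

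Promoter sequence does not draw on expression values, but the members are known genes of these routes, chosen with earlier results of these data known. The motif shares below describe the listed genes and were not tested. All genes here means every gene with a RefSeq promoter, whether or not it was tested in these cultures. RefSeq promoters of GRCm38.p6 were matched for 25 of the 32 members, 17 sterol and 8 fatty acid, and the 250 bases before each start were searched on both strands, with a gene counted once if any of its starts held the motif. CCAAT was found in 16 of 17 sterol promoters (94.1%) and in 4 of 8 fatty acid promoters (50.0%), against 37.5% of all 27025 genes. Acat2 was the sterol gene without it, and Acaca, Acly, Elovl6 and Fads2 were the fatty acid genes without it. CACGTG was found in 4 of 17 sterol promoters (Hsd17b7, Sc5d, Dhcr7 and Insig1) and in 1 of 8 fatty acid promoters (Elovl5), against 6.86% of all genes. TCACNCCAC was found in Hmgcs1 alone, 1 of 17, against 1.22% of all genes. These are matches of letters in a fixed window, and no match says only that these letters are not in it.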

How the data were processed

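Per the labels and the paper's methods, poly(A) RNA from 3 WT and 3 Plxnb1-/- SC cultures was made into stranded libraries. The authors trimmed reads with Trim Galore 0.6.5, aligned them to mm10 with Bowtie2 2.4.1, removed duplicates with SAMtools 1.10 and counted with featureCounts. Bowtie2 does not split reads across introns, which can lower the counts of genes with short exons. The deposited table holds whole-number counts on exons, not normalized. FPKM values were deposited too, and the length behind them equals the span of the gene in 100.0% of compared genes within a tolerance of 1%, and levels between genes were taken from the counts.

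Of 55401 rows, 55141 matched GENCODE M21 (GRCm38) once identifier versions were dropped. A gene was tested if 5 or more of the 6 libraries held 2 or more counts, with edgeR 4.0.16 (TMM, quasi-likelihood, genotype only) in R 4.3.3, with Benjamini-Hochberg adjustment. Calls needed a log2 fold change beyond 0.25 in either direction and an adjusted p below 0.05. Total counts lay between 59252048 and 77280964. The floor of 3 counts covers counting error only. Alternatives were DESeq2 1.42.0, other scalings and filters, a replicate term, each library left out, and limma 3.58.1 on FPKM. Shared sequence was found with BLAST 2.17.0 (at least 300 aligned bases at 90% identity). Scripts were tested on simulated data. Tables used Python 3.11.15 and pandas 2.3.3.

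The members and lists were chosen with earlier results of these data known. Named were Plxnb1, all members, and per related list the genes called by either tool and that with the smallest p, of which 1 is not reported here, nor are 2 of the SC markers. Values in every culture were given for the 8 sterol and 5 fatty acid genes with the smallest p, the regulators and the Scd pair, and those of Hmgcs1, Dhcr7 and Acly were added after they were seen.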

Additional observations from a re-analysis of the deposited data

How the results depend on the processing

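Against the main fit, the 32 members kept a positive log2 fold change under all the fits with 1 choice changed, with sterol medians between 0.13 and 0.22 and fatty acid medians between 0.11 and 0.22. The exceptions came from fits added after seeing the data, without WT replicate 2 and Plxnb1-/- replicate 3, where 30 of 32 stayed higher by edgeR and by DESeq2. In the edgeR fit Pmvk (-0.0046) and Acly (-0.0067) turned, and the medians were 0.087 and 0.059 (0.087 and 0.058 by DESeq2). Leaving out the outermost library of each genotype narrows a difference by construction. edgeR called 8 genes in all, and 296 with no filter, 5 with a CPM above 1 in 3 libraries, 5 with a replicate block, between 4 (without Plxnb1-/- replicate 2 or 3) and 25 (without WT replicate 2) with a library left out, and 33 without the outermost libraries. limma called 4 on log2(FPKM + 0.1) and 3 on log2(FPKM + 1). DESeq2 called 335, 52 without the outermost libraries, and, with WT replicates 1 to 3 left out in turn, 946, 162 and 219, and with Plxnb1-/- replicates 1 to 3 left out, 281, 124 and 51. The cause of the spread in these counts was not tested. Same-numbered cultures did not deviate together (r from -0.022 to 0.065), so the numbers were not taken as pairs. With a replicate block edgeR still called 0 members, while DESeq2 with that block, added after seeing the data, called 388 genes, or 1.74%, among them 2 sterol members (Lss and Acat2) and 4 related genes. Members called by DESeq2 with a library left out numbered 0 to 5 in the sterol arm and 0 to 3 in the fatty acid arm. The only such fit with members called was that without WT replicate 1, where 4.17% of all tested genes were called. Related genes called were 0 by edgeR and 3 by DESeq2, where 0.0358% and 1.5% of all tested genes were called. With no filter 1 related gene was called, where 296 genes were called in all. With a library left out 0 to 12 related genes were called, by fits that called 4 to 946 genes in all. The Plxnb1 difference lost its edgeR call with the CPM filter (-2.08, adjusted p = 0.108) and without WT replicate 1 or any 1 of the Plxnb1-/- replicates. It was not called on log2(FPKM + 0.1) (-1.86, limma adjusted p = 0.42) or on log2(FPKM + 1) (-1.14, limma adjusted p = 0.392). Over all edgeR fits with 1 library left out, called or not, it ran from -2.30 (without WT replicate 2, still called) to -1.74. Each genotype had 3 cultures, and no member had fewer than 1065 counts in a library.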
